A study of Mus musculus with 11 samples.

Results

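Cells sorted for a Pomc reporter were compared with cells sorted for a Tbr2 knock-in reporter in the dentate gyrus, the hippocampal region that adds neurons after birth. PomcGFP mice are transgenic for green fluorescent protein (GFP) under the control of Pomc, a hormone precursor gene whose reporter is known to label newborn granule neurons. kiTbr2GFP mice carry a GFP knock-in at Eomes, which encodes Tbr2, a T-box transcription factor of intermediate neuronal progenitors. All animals were at postnatal day 35, and nothing in the labels names a treatment, a strain or a sex for either line. The dorsal and ventral dentate gyrus was microdissected, GFP-positive cells were sorted by flow cytometry, about 3000 to 5000 per group, and their RNA was amplified for Affymetrix Mouse Gene 1.0 ST arrays. The comparison used 5 of the 11 arrays of the series, chosen by title: 2 PomcGFP and 3 kiTbr2GFP arrays. The other 6 arrays were NesGFP, a Nestin reporter, and tgTbr2GFP, a Tbr2 transgene. They entered only the estimate of spread, the choice of probe set per gene and the filter on low values. Of 19938 genes with a probe set of their own, 16526 passed the filter on low values and were tested. The number of arrays limits the precision. Whether the arrays of a line stem from separate animals is not stated in the labels, so p-values measure only the spread between these arrays, which may be technical.

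In the adult dentate gyrus, radial stem cells give rise to intermediate progenitors that divide a few times and express Eomes. Their daughters leave the cell cycle as immature neurons with Dcx and calretinin (Calb2), and mature into granule neurons with calbindin (Calb1), NMDA and AMPA receptors and synapses. Mitotic genes are known to be switched on together late in the cycle through a promoter element, the cell cycle genes homology region (CHR), and through CCAAT boxes bound by NF-Y.

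The labels were checked first against Eomes, Top2a and Calb1. Eomes stood at log2 values of 7.68 and 7.35 on the PomcGFP arrays and at 10.07, 9.93 and 9.93 on the kiTbr2GFP arrays. Top2a, the DNA topoisomerase of dividing cells, stood at 7.02 and 7.17 against 10.55, 10.46 and 10.34. Calb1, a calcium-binding protein of mature granule neurons, stood at 10.10 and 10.14 against 7.78, 7.28 and 6.83. For all 3 genes the groups lay far apart, with the progenitor and division genes high in kiTbr2GFP and Calb1 high in PomcGFP. Differences below are PomcGFP minus kiTbr2GFP on the log2 scale, ± the standard error (SE) of the limma fit, with Benjamini-Hochberg adjusted p-values over all genes. They were -2.46 ± 0.22 (adjusted p = 0.000106) for Eomes, -3.36 ± 0.23 (adjusted p = 2.24e-05) for Top2a and 2.82 ± 0.26 (adjusted p = 0.000127) for Calb1. Pomc itself, at 7.27 and 7.22 against 6.85, 6.54 and 6.91, did not pass (0.48 ± 0.17, adjusted p = 0.173), although its arrays did not overlap. Of the immature neuron markers, Dcx (-0.50) and Calb2 (-0.38) did not pass and had lower means in PomcGFP. These markers do not identify the PomcGFP cells as newborn neurons, and the cells are called by their reporter here. In sorted populations fewer cells of a type and less RNA per cell cannot be told apart, and this holds for every difference here.

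In all, 807 genes passed at an adjusted p under 0.05, which is 4.88% of those tested. Of these, 479 were higher in PomcGFP (2.9%) and 328 lower (1.98%), 246 and 150 of them by more than 2-fold. Arrays of the 2 groups did not overlap for 33.8% of all genes, with PomcGFP above in 18.1% and below in 15.8%. No gene that passed had overlapping arrays. The median difference of all genes was 0.01, and the middle range from the 10th to the 90th percentile ran from -0.30 to 0.33. Counts fell when arrays were left out. The total was 365 without the first PomcGFP array (186 higher, 179 lower), 382 without the second (241 higher, 141 lower), 494 without the first kiTbr2GFP array (300 higher, 194 lower), 553 without the second (342 higher, 211 lower) and 536 without the third (307 higher, 229 lower). All 807 genes kept their sign under each setting in which they were tested. Most of these settings could not change a sign, because the arrays did not overlap or the setting leaves the difference as it was.

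**Figure D1:**
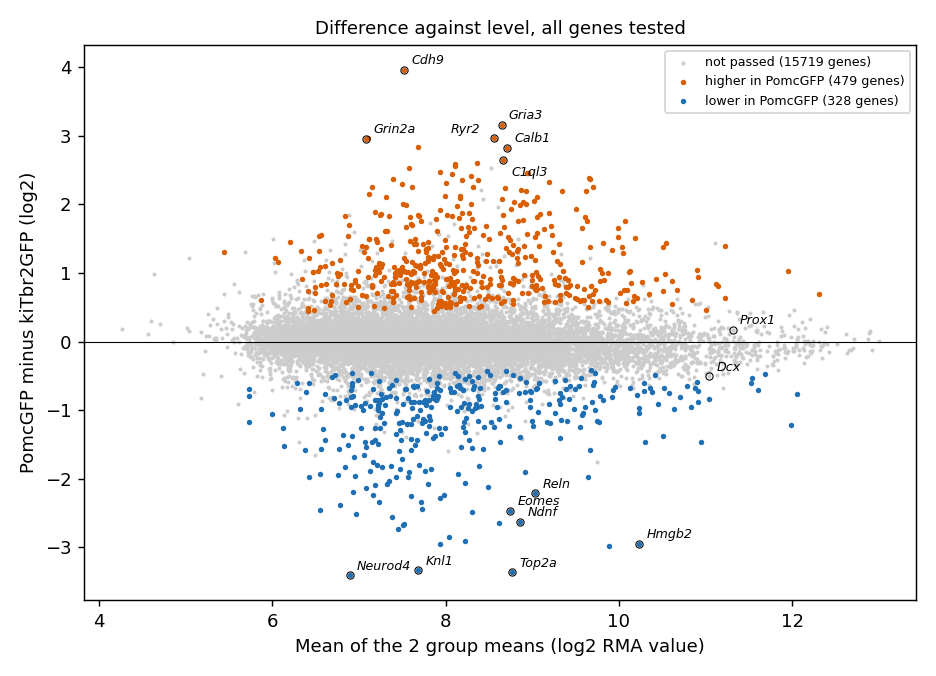
Difference between the groups (PomcGFP minus kiTbr2GFP, log2) against the mean of both group means (log2 RMA value), 1 point per gene; orange genes passed as higher in PomcGFP (479), blue as lower (328), and grey genes did not pass. Cdh9 lies highest at 3.96 and Neurod4 lowest at -3.40, while Prox1 and Dcx lie near 0 at high levels.

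The 15 largest negative differences included kinetochore and spindle genes, a proneural factor, a splicing factor, a neuronal RNA-binding protein and a secreted protein. Neurod4, a proneural transcription factor, stood at 5.09 and 5.30 on the PomcGFP arrays and at 8.88, 8.45 and 8.46 on the kiTbr2GFP arrays (-3.40 ± 0.32, adjusted p = 0.000129), a 10.6-fold difference. Both PomcGFP values lay below the 25th percentile of their arrays, so the size of this difference is imprecise. Knl1, the scaffold of the outer kinetochore, stood at 6.24 and 5.80 against 9.57, 9.38 and 9.12 (-3.33 ± 0.23, adjusted p = 2.68e-05). Hmgb2, a chromatin protein abundant in dividing cells, stood at 8.80 and 8.71 against 11.82, 11.64 and 11.66 (-2.95 ± 0.12, adjusted p = 4.84e-07). For all 3 genes the lowest kiTbr2GFP array lay far above the higher PomcGFP array. Cwc22, a splicing factor whose gene is known to vary in copy number between mouse strains (-2.98), Cks2, a subunit of cyclin-dependent kinases (-2.95), Kif11, the motor that separates spindle poles (-2.90), Cenpk (-2.84) and Cenph (-2.56), which are kinetochore proteins, and Elavl4, a neuronal RNA-binding protein (-2.65), followed.

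The promoters of the 6 mitotic genes with the largest negative differences that hold both a CHR and a CCAAT box are shown, because members of this list moved together and these elements are known to serve such genes. Each runs 5′ to 3′ over the 250 bases before the transcription start (RefSeq, GRCm38.p6). Capitals mark CHR (TTTGAA) and CCAAT matches on either strand, so that TTCAAA and ATTGG are the reverse-strand forms.
Top2a, chr11:99024190-99024439, minus strand: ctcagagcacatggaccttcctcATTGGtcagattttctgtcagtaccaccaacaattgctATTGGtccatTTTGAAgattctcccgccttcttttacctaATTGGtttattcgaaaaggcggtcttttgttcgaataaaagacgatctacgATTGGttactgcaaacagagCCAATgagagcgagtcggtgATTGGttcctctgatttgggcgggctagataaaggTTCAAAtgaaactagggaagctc
Kif11, chr19:37376132-37376381, plus strand: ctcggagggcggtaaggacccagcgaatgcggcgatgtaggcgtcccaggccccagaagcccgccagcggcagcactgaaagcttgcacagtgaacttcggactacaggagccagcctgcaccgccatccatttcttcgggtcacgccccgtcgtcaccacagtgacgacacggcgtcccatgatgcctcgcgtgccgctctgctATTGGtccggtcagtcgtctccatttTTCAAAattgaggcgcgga
Ncapg, chr5:45669675-45669924, plus strand: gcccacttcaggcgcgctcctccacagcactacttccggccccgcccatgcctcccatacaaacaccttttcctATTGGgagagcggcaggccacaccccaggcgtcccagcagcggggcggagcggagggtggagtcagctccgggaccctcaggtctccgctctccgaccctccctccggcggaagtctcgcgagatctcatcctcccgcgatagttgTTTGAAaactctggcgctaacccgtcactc
Mki67, chr7:135716380-135716629, minus strand: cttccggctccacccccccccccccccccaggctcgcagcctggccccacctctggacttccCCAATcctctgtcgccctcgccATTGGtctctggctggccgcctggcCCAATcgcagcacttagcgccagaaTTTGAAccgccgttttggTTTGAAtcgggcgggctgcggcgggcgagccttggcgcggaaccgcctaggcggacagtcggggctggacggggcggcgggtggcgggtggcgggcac
Prc1, chr7:80294226-80294475, plus strand: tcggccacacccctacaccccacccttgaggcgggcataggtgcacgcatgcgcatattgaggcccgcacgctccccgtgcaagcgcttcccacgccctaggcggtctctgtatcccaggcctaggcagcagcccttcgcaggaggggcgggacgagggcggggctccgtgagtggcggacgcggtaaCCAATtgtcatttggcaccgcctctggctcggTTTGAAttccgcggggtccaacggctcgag
Ect2, chr3:27153879-27154128, minus strand: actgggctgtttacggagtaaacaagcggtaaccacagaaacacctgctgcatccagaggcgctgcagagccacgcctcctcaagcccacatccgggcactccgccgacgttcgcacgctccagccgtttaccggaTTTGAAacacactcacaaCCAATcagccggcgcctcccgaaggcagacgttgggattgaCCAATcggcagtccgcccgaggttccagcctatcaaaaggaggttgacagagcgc

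In these 6 windows the CHR nearest to the start began 23 bases before it in Top2a, 19 in Kif11, 30 in Ncapg, 98 in Mki67, 30 in Prc1 and 114 in Ect2. Top2a held 6 CCAAT matches, and Kif11, Ncapg and Prc1 held 1 each. Among the mitotic genes that passed as lower, 46 of 54 had a promoter in the table, with 49 promoters in all. A CHR was found in 19 of the 49 (38.8%), against 11.3% of the 16338 promoters of all genes tested. CCAAT was found in 69.4% of them against 34.2%, and both elements in 32.7% against 4.06%. The nearest CHR lay a median of 30 bases before the start in the mitotic promoters that held one and 144 bases in all promoters that held one. For the 20 promoters of DNA replication genes that passed as lower, CHR was found in 5.0% and CCAAT in 60.0%, and TTTGGCG, an E2F motif, in 20.0% against 1.77% of all promoters. CAGATG, the E-box bound by Neurod factors, was found in 10.2% of the mitotic promoters and 11.1% of all, and GGTGTGA, a T-box motif, in 2.04% and 3.02%. The E2F motif was in 8.16% of the mitotic promoters. Promoters of all genes that passed as lower held CHR in 20.8% and CCAAT in 51.4%, and those of all that passed as higher in 9.85% and 31.4%. Among 23 promoters of mature neuron genes that passed as higher, CHR was found in 5 (21.7%) and CCAAT in 34.8%. These matches describe letters in a window and were not tested.

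Mitosis and kinetochore genes had the largest share of members past the test among the lists. Of 61 measured members 54 were lower in PomcGFP, 0 were higher and 7 did not pass, with a median difference of -1.59, beside 1.98% lower and a median of 0.01 among all genes. The list averaged 6.79 and 6.69 on the PomcGFP arrays and 8.59, 8.37 and 8.28 on the kiTbr2GFP arrays, and for all 61 members both PomcGFP arrays lay below all kiTbr2GFP arrays, as they did for 15.8% of all genes. Mki67, the marker of cycling cells, stood at 6.83 and 6.90 against 9.30, 8.95 and 9.03 (-2.23 ± 0.15, adjusted p = 2.08e-05). Spc25, of the Ndc80 complex that holds microtubules, stood at 6.01 and 6.34 against 8.79, 8.98 and 8.76 (-2.67 ± 0.15, adjusted p = 1.2e-05). Ncapg, a condensin subunit, stood at 6.23 and 6.14 against 8.94, 8.94 and 8.67 (-2.66 ± 0.21, adjusted p = 5.22e-05). The groups did not overlap for any of them. The lower members covered kinetochore (Nuf2 -2.73), checkpoint (Bub1 -2.51), spindle (Kif11 -2.90) and condensin proteins (Ncapg). The 7 members that did not pass were Anln (-0.98), Ube2c (-0.81), Ncapd2 (-0.50), Cdc20 (-0.49), Kif20a (-0.49), Aurkb (-0.41) and Nde1 (-0.13). Leaving out single arrays gave 38 (second PomcGFP array) to 50 (the third kiTbr2GFP array) lower members.

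DNA replication genes were lower in part. Of 48 measured members 22 were lower and 0 higher, beside 1.98% lower among all genes. The list had a median of -0.65 and averages of 7.42 and 7.28 against 8.12, 8.06 and 8.06. Hells, a chromatin remodeller of replicating cells, stood at 6.49 and 6.46 against 8.98, 8.75 and 8.45 (-2.25 ± 0.19, adjusted p = 8.17e-05). Rrm1, a subunit of the ribonucleotide reductase that makes deoxynucleotides, stood at 7.71 and 7.36 against 9.19, 8.99 and 9.08 (-1.55 ± 0.17, adjusted p = 0.000311). Mcm6, of the replicative helicase, stood at 8.21 and 7.58 against 9.61, 9.15 and 9.30 (-1.46 ± 0.19, adjusted p = 0.000917). The 2 PomcGFP arrays differed more from each other for Mcm6 than for Hells, but both stayed below all kiTbr2GFP arrays. Prim1, of the primase, was also lower (-1.81 ± 0.29, adjusted p = 0.00325), but not without the second PomcGFP array (adjusted p = 0.058). The count of lower members was 13 without the first PomcGFP array and 8 without the second. Of G1 cyclins, kinases and inhibitors 5 of 29 were lower and 0 higher, namely Cdk6, Rbl1 (-1.57), Ccnd2, E2f8 (-0.94) and Cdk4 (-0.77), the last of which did not pass without the first (adjusted p = 0.0535) or second PomcGFP array (adjusted p = 0.063). Ccnd2, the cyclin D of progenitors, stood at 8.98 and 9.41 against 10.37, 10.31 and 10.39 (-1.16 ± 0.15, adjusted p = 0.000882). E2f8 did not pass without any 1 of the 5 compared arrays (adjusted p = 0.0601 to 0.233), and 2 of the G1 members were lower without the first PomcGFP array. Of 22 replication-dependent histone genes 3 were lower, including H2bc21 (-1.03).

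Intermediate progenitor factors were lower or did not pass. Of 22 measured members 7 were lower (beside 1.98% of all genes) and 0 higher, with a median of -0.30. Beside Neurod4, Elavl4 and Eomes these were Nhlh1, a bHLH factor, Chd7, a chromatin remodeller, Neurog2, the proneural factor upstream of Eomes, and Mfap4. Elavl4 is also counted among the neuronal RNA-binding genes below. Chd7 (-1.46 ± 0.36, adjusted p = 0.0438) did not pass without the second PomcGFP array (adjusted p = 0.425) or any 1 kiTbr2GFP array (adjusted p = 0.0852 to 0.152). Neurog2 stood at 8.27 and 8.52 on the PomcGFP arrays and at 9.67, 9.67 and 9.54 on the kiTbr2GFP arrays (-1.23 ± 0.14, adjusted p = 0.000456). Nhlh1 stood at 7.40 and 7.41 against 9.0, 8.96 and 8.89 (-1.54 ± 0.14, adjusted p = 0.000102). Both were tightly grouped within a line. Members of the Notch-signalling side of these cells gave differences of -0.23 (Dll3), -0.20 (Hes6) and -0.13 (Dll1), and none of them passed. The list had 6 or 7 lower members without any 1 of the compared arrays.

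**Figure D2:**
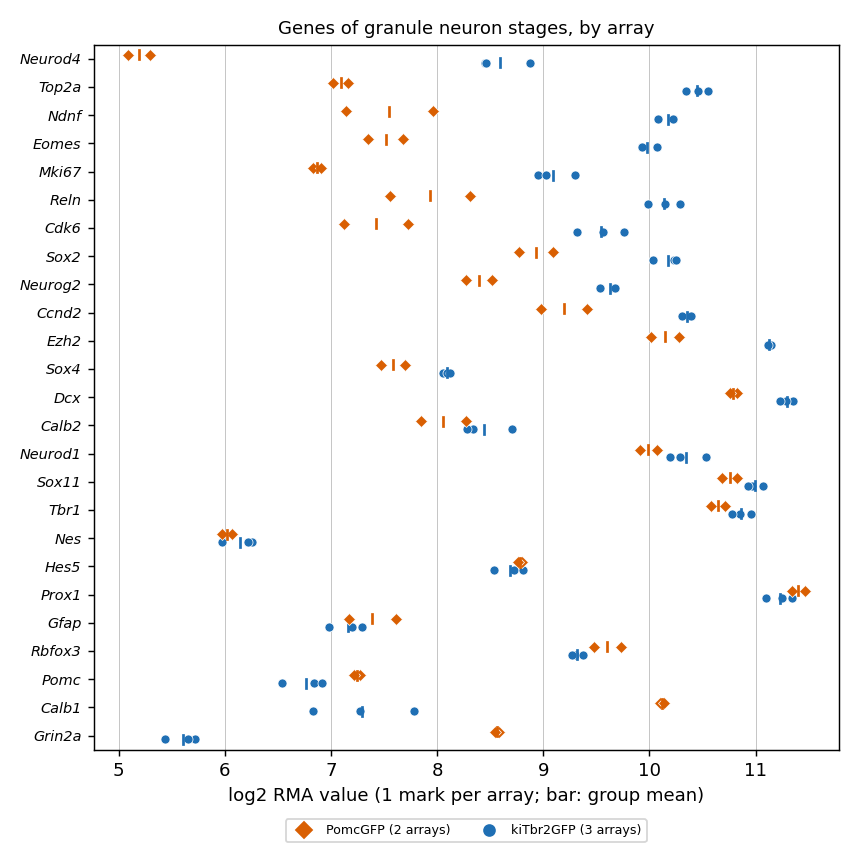
Genes of the stages of granule neuron formation, in order of difference, on a log2 RMA axis; orange diamonds are the 2 PomcGFP arrays, blue circles the 3 kiTbr2GFP arrays and bars the group means. Genes from Neurod4 to Ezh2 passed as lower and Calb1 and Grin2a as higher in PomcGFP; the 12 genes between them did not pass.

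In the stem cell and radial glia list 4 of 27 genes were lower (14.8%, beside 1.98% of all genes) and 0 higher, with a median of -0.01. The lower ones were Cdk6, Sox2, Pax6 and Thrsp. Sox2, the stem cell transcription factor, stood at 8.77 and 9.09 against 10.23, 10.25 and 10.03 (-1.24 ± 0.20, adjusted p = 0.00417). Pax6, expressed in radial glia and early progenitors, stood at 7.52 and 7.84 against 8.81, 8.73 and 8.83 (-1.11 ± 0.16, adjusted p = 0.00161). In both genes the kiTbr2GFP arrays lay above both PomcGFP arrays. Without the first PomcGFP array Sox2 (adjusted p = 0.0704) and Cdk6 (adjusted p = 0.0536) did not pass, and 1 member was lower. Thrsp, a regulator of lipid synthesis in slowly dividing stem cells (-0.65 ± 0.14, adjusted p = 0.0218), did not pass without the second (adjusted p = 0.0806) or the third kiTbr2GFP array (adjusted p = 0.0742), the first PomcGFP array (adjusted p = 0.0545) or the second (adjusted p = 0.239). Nes, at 6.07 and 5.97 against 6.25, 5.97 and 6.22, gave a 95% interval of the difference of -0.57 to 0.31. Hes5, a Notch target, gave -0.16 to 0.34, and Gfap, an intermediate filament of astrocytes and radial cells, -0.16 to 0.63. No Notch pathway gene of 30 and no BMP or Hedgehog pathway gene of 34 passed in limma, and 4 and 8 had an unadjusted p under 0.05. Among all genes 14.3% had an unadjusted p under 0.05, and 2.9% passed as higher and 1.98% as lower. Of 41 Wnt pathway genes Sfrp2, a secreted Wnt antagonist, was higher (0.49) and the ligand Wnt5a lower (-0.45), and neither passed without any 1 of the compared arrays (adjusted p = 0.0742 to 0.19 for Sfrp2 and 0.0728 to 0.283 for Wnt5a).

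Prox1, Neurod1 and Dcx stood high in both lines, while other granule neuron genes differed. Prox1, the granule cell fate gene, stood at 11.46 and 11.34 on the PomcGFP arrays and at 11.34, 11.25 and 11.09 on the kiTbr2GFP arrays, and did not pass (adjusted p = 0.719; 95% interval -0.11 to 0.46). Neurod1, which drives granule neuron differentiation, stood at 9.92 and 10.07 against 10.54, 10.19 and 10.29 (interval -0.70 to 0.00, adjusted p = 0.362). Dcx, the microtubule protein of migrating neuroblasts, stood at 10.82 and 10.76 against 11.36, 11.29 and 11.23 (-0.50 ± 0.16, adjusted p = 0.128; interval -0.86 to -0.15). Dcx and Neurod1 arrays did not overlap, while Prox1 arrays met at 11.34. Dcx passed when the spread came from the 5 compared arrays alone (adjusted p = 0.0263), without the second NesGFP array (adjusted p = 0.0233), without all NesGFP arrays (adjusted p = 0.0166) and with array weights (adjusted p = 0.00784). Sox4 (-0.50, adjusted p = 0.0584) passed under several such settings, which ran from an adjusted p of 0.00362 to 0.0384, including the fit without the first NesGFP array (adjusted p = 0.0322). Of 33 immature neuron genes Map1b, a microtubule-associated protein, was higher (0.74 ± 0.18, adjusted p = 0.0405) and Elavl2, a neuronal RNA-binding protein, lower (-1.18 ± 0.20, adjusted p = 0.00524). Map1b did not pass without any 1 of the 5 compared arrays (adjusted p = 0.0586 to 0.375) or of the 3 tgTbr2GFP arrays (adjusted p = 0.0504 to 0.0601), and Elavl2 did not without the second PomcGFP array (adjusted p = 0.0823). The remaining 31 gave -0.57 (Igfbpl1) to 0.47 (Islr2), with Tubb3, neuronal tubulin, at -0.32. Of all genes, 2.9% were higher and 1.98% lower.

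The largest positive difference was in a cadherin. Cdh9, a cell adhesion protein of granule cell synapses with CA3, stood at 9.49 and 9.51 on the PomcGFP arrays and at 5.85, 5.31 and 5.45 on the kiTbr2GFP arrays (3.96 ± 0.30, adjusted p = 3.85e-05), a 15.5-fold difference. The kiTbr2GFP values lay below the 25th percentile of those arrays. Of 36 genes of granule neuron fate and calcium binding 14 were higher and 0 lower, beside 2.9% higher among all genes. The list median was 0.47. C1ql3, a secreted synaptic organizer, stood at 9.98 and 9.98 against 7.29, 7.49 and 7.22 (2.65 ± 0.21, adjusted p = 5.22e-05). Trpc6, a cation channel of granule cells, stood at 8.92 and 8.75 against 5.97, 6.46 and 6.51 (2.52 ± 0.29, adjusted p = 0.000447). For each of the 3 genes the lowest PomcGFP array lay more than a 4-fold difference above the highest kiTbr2GFP array. Dgkh, a diacylglycerol kinase (1.99), and Ahcyl2 (1.81) were also higher. Tdo2, a tryptophan-degrading enzyme of mature granule neurons (1.31 ± 0.26, adjusted p = 0.0145), was higher too, but not without the first (adjusted p = 0.0663) or the third kiTbr2GFP array (adjusted p = 0.0509), or the first (adjusted p = 0.13) or second PomcGFP array (adjusted p = 0.0872). Nuclear factor I genes gave -0.44 (Nfia), -0.40 (Nfix) and -0.23 (Nfib), and none of them passed. Without the first PomcGFP array 7 of the 36 were higher.

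Mature neuron genes were higher in most of the list. Of 32 measured members 24 were higher and 0 lower, with a median of 1.23, beside 2.9% higher among all genes, and for 30 of the 32 both PomcGFP arrays lay above all kiTbr2GFP arrays, as they did for 18.1% of all genes. The list averaged 9.90 and 9.69 against 8.42, 8.57 and 8.43. Ryr2, the calcium release channel of the endoplasmic reticulum, stood at 10.04 and 10.03 against 7.01, 7.27 and 6.95 (2.96 ± 0.30, adjusted p = 0.000189). Camk2a, the calcium/calmodulin kinase of excitatory neurons, stood at 10.96 and 10.73 against 8.16, 8.84 and 8.37 (2.39 ± 0.29, adjusted p = 0.000643). Slc12a5, the chloride extruder KCC2 of mature neurons, stood at 7.64 and 7.75 against 6.71, 6.91 and 6.80 (0.89 ± 0.16, adjusted p = 0.00845). Each was high on both PomcGFP arrays with no overlap, although Slc12a5 did not pass without the first (adjusted p = 0.058) or second PomcGFP array (adjusted p = 0.0947). The general neuronal genes Rbfox3 (0.29), Map2 (0.21) and Syn2 (0.19) did not pass, and neither did Syn1 (0.58), Rtn1 (0.25), Enc1 (0.34), Kcnk1 (0.29) or Nefh (0.16). The count of higher members was 13 without the first PomcGFP array, and 18 to 22 without any other 1 of the compared arrays. Of 17 glycolysis genes 3 were higher, the enzymes Aldoa (1.01), Eno2 (1.06) and Pfkp (0.77). Of 62 respiratory chain genes 1 was higher, Ndufb9 of complex I (0.61), a share below the 2.9% of all genes. Aldoa passed without each compared array. Eno2 did not without the first PomcGFP array (adjusted p = 0.115), Pfkp without the first (adjusted p = 0.172) or second PomcGFP array (adjusted p = 0.0585) or the third kiTbr2GFP array (adjusted p = 0.0599), and Ndufb9 without any 1 of the 5 (adjusted p = 0.0566 to 0.213).

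**Figure D3:**
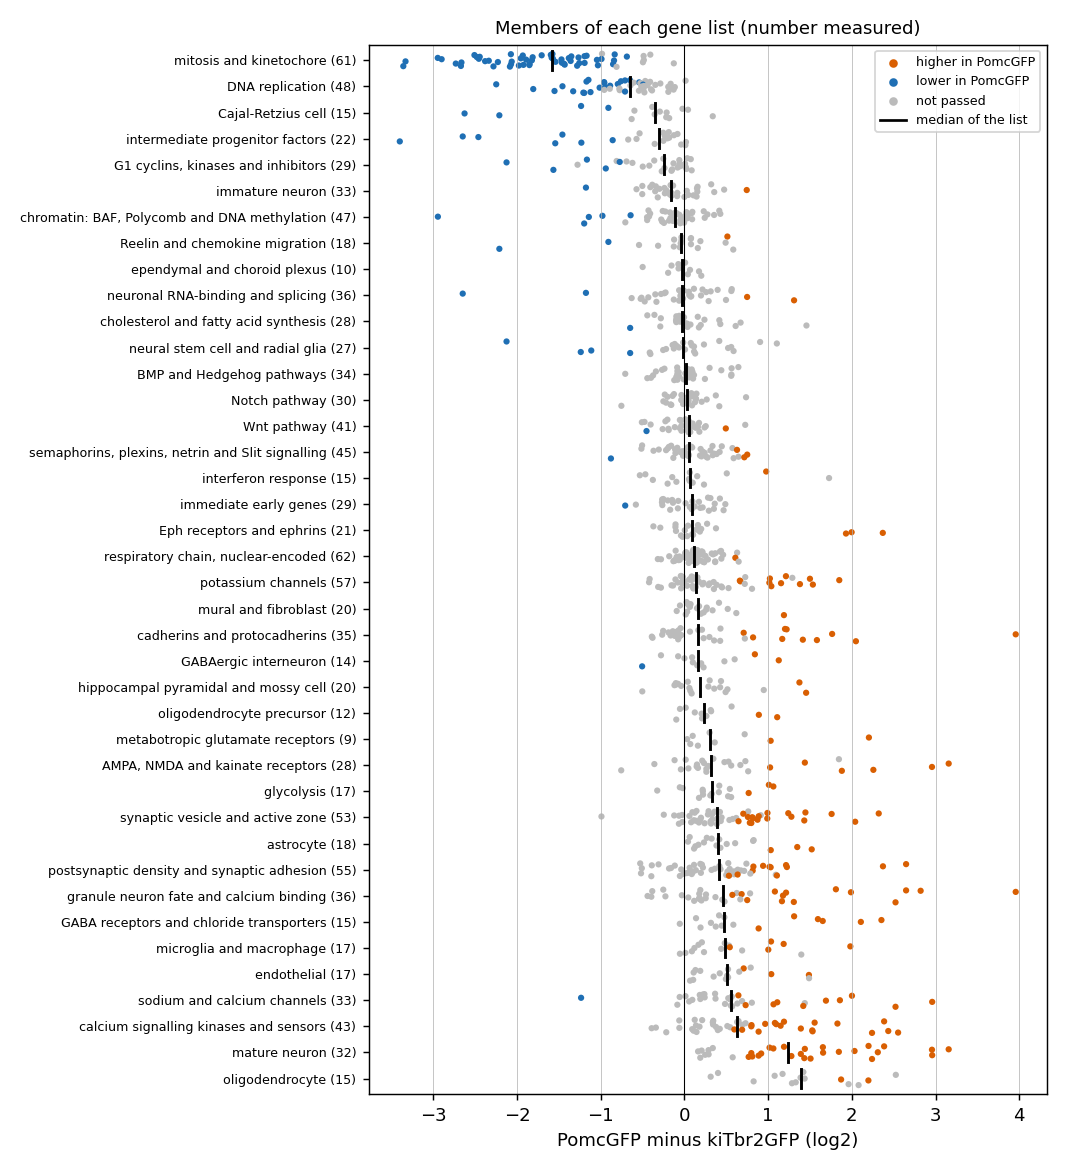
Difference of every measured member of each gene list (PomcGFP minus kiTbr2GFP, log2), with the number measured in brackets; orange members passed as higher, blue as lower and grey did not pass, and black bars are list medians. The mitosis list has the lowest median (-1.59) and the mature neuron and oligodendrocyte lists the highest (1.23 and 1.39), the latter with 2 members that passed.

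Glutamate receptor genes differed by subunit. Grin2a, the NMDA receptor subunit that joins receptors as synapses mature, stood at 8.58 and 8.54 on the PomcGFP arrays and at 5.72, 5.65 and 5.44 on the kiTbr2GFP arrays (2.96 ± 0.34, adjusted p = 0.000484). Grin2b, the subunit found earlier, stood at 9.80 and 9.92 against 8.86, 8.86 and 8.79 (1.02 ± 0.13, adjusted p = 0.000792). Gria3, an AMPA receptor subunit, stood at 10.29 and 10.16 against 6.36, 7.43 and 7.41 (3.16 ± 0.39, adjusted p = 0.000767). All 3 were higher without overlap, and the kiTbr2GFP levels of Grin2a lay below the 25th percentile of their arrays. Gria1 was higher by 1.44 ± 0.27 (adjusted p = 0.00871), but not without the first (adjusted p = 0.0782) or second PomcGFP array (adjusted p = 0.076). Gria2, the subunit that keeps AMPA receptors impermeable to calcium, stood at 12.07 and 12.21 against 11.90, 11.90 and 11.91, and did not pass (adjusted p = 0.796; 95% interval -0.20 to 0.66). The list of AMPA, NMDA and kainate receptors and their auxiliary proteins had a median of 0.32. Beside 2.9% higher among all genes, 6 of its 28 members were higher and 0 lower. Auxiliary proteins among them were Neto1, of kainate receptors (2.26), which did not pass without the first PomcGFP array (adjusted p = 0.0592), and Shisa6, of AMPA receptors (1.88), which did not without the second (adjusted p = 0.0727). Cacng3, another AMPA auxiliary protein, gave 1.85 ± 0.56 without passing (adjusted p = 0.1). Of 9 metabotropic receptor and Homer genes Grm5 (2.20 ± 0.33, adjusted p = 0.00235) and Grm7 (1.03 ± 0.14, adjusted p = 0.00103) were higher. The other 7 gave 0.03 (Grm6), 0.07 (Homer2), 0.10 (Grm4), 0.16 (Homer3), 0.30 (Grm2), 0.36 (Homer1) and 0.72 (Grm3), and Grm3 passed with the 5 compared arrays alone (adjusted p = 0.0225) and without the first tgTbr2GFP array (adjusted p = 0.0393).

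GABA is the first transmitter to reach newborn granule cells. In the list of its receptors and of chloride transporters, 6 of 15 measured genes were higher and 0 lower. Among all genes 2.9% were higher, and the list median was 0.48. Gabrb2 stood at 10.04 and 10.18 against 7.96, 8.31 and 7.74 (2.11 ± 0.28, adjusted p = 0.00103). Gabrb1 stood at 9.0 and 9.0 against 6.79, 7.85 and 7.40 (1.65 ± 0.27, adjusted p = 0.00381), and Gabbr2, of the metabotropic GABA-B receptor, was higher by 1.31. Both beta subunits were high on each PomcGFP array. Gabra5, of extrasynaptic receptors, stood at 9.73 and 9.0 against 7.09, 7.22 and 6.72 (2.35 ± 0.38, adjusted p = 0.00357), and Gabra4 differed by 1.59 ± 0.31 (adjusted p = 0.0111). Gabra5 did not pass without the first PomcGFP array (adjusted p = 0.0653), and Gabra4 without the first (adjusted p = 0.092) or the second (adjusted p = 0.0871). Slc12a5, given above, was also higher. Slc12a2, the chloride importer NKCC1 of immature neurons, gave 0.19 and did not pass. Without the first PomcGFP array 3 of the 15 were higher.

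**Figure D4:**
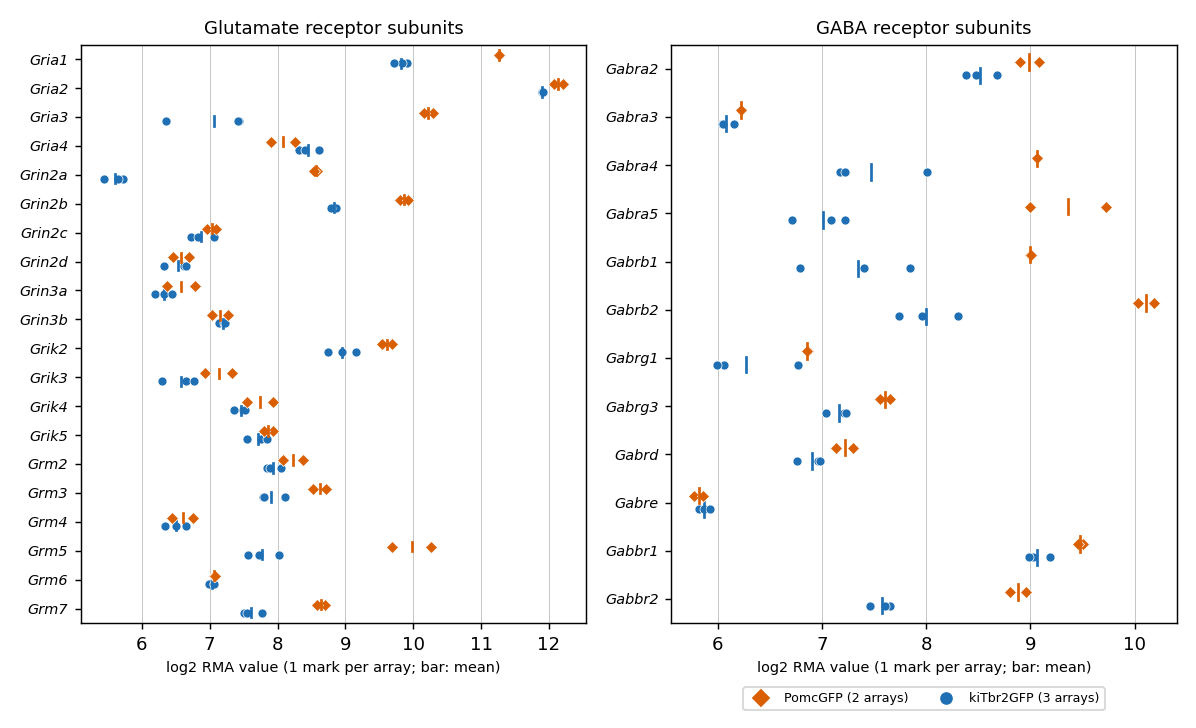
Levels of glutamate receptor (left) and GABA receptor genes (right) on a log2 RMA axis; orange diamonds are the 2 PomcGFP arrays, blue circles the 3 kiTbr2GFP arrays and bars the group means. Gria3 (3.16), Grin2a (2.96) and Gabra5 (2.35) show the widest gaps, while Gria2 lies near 12 in both groups.

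Ion channel genes were higher in a minority of each family. Of 57 potassium channel genes 11 were higher and 0 lower, with a median of 0.13, beside 2.9% higher and 1.98% lower among all genes. Kcnj6 and Kcnj3, which form G-protein-gated inward rectifiers, differed by 1.53 ± 0.16 (adjusted p = 0.000246) and 1.38 ± 0.16 (adjusted p = 0.000523). Kcnj6 stood at 7.60 and 7.67 against 6.04, 6.03 and 6.24. Kcnd2, the A-type channel of dendrites, was higher by 1.85 ± 0.30 (adjusted p = 0.00406), but not without the first PomcGFP array (adjusted p = 0.0693). That array also took the count of higher potassium channel genes to 5 when left out, and it was 7 without the first kiTbr2GFP array. Of 33 sodium and calcium channel genes 10 were higher and 1 lower, with a median of 0.55. Cacna1e, the R-type calcium channel, stood at 10.01 and 9.84 against 7.96, 7.92 and 7.88 (2.0 ± 0.25, adjusted p = 0.000835). Fgf13, a sodium channel partner, stood at 10.07 and 9.96 against 7.89, 8.56 and 8.02 (1.86 ± 0.27, adjusted p = 0.00213). Both were high on each PomcGFP array. Cacna2d2, the lower member, stood at 7.14 and 7.25 against 8.31, 8.50 and 8.47 (-1.23 ± 0.26, adjusted p = 0.0187), and did not pass without any 1 of the compared arrays (adjusted p = 0.052 to 0.153).

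Synaptic and calcium signalling genes followed the receptors. Of 53 synaptic vesicle and active zone genes 18 were higher and 0 lower, with a median of 0.39, beside 2.9% higher among all genes. Nsf, the ATPase that recycles SNARE complexes, stood at 10.46 and 10.23 against 8.07, 7.96 and 8.05 (2.32 ± 0.22, adjusted p = 0.000122). Syt17, a synaptotagmin, stood at 9.97 and 9.85 against 7.57, 7.92 and 8.11 (2.04 ± 0.18, adjusted p = 9.1e-05). Neither had overlapping arrays. Slc17a7, the vesicular glutamate transporter of granule cells, was higher by 1.28 ± 0.33 (adjusted p = 0.0499), but not without any 1 of the compared arrays (adjusted p = 0.0569 to 0.393). Slc17a6, the other major one, gave -0.99 ± 0.30 without passing (adjusted p = 0.0995). Of 55 postsynaptic density and adhesion genes 12 were higher and 0 lower, with a median of 0.42, led after C1ql3 by Dlg2, a scaffold of NMDA receptors (2.37 ± 0.37, adjusted p = 0.00303). Of 43 calcium signalling kinases and sensors 19 were higher and 0 lower, with a median of 0.63. Rasgrf1, a calcium-activated exchange factor for Ras, stood at 9.30 and 9.28 against 6.58, 7.19 and 6.80 (2.44 ± 0.28, adjusted p = 0.000482). Rgs7, a regulator of G-protein signals, was higher by 2.55 ± 0.32 (adjusted p = 0.000879). Without the first PomcGFP array the counts of higher genes were 8 (vesicle), 4 (postsynaptic) and 9 (calcium), and without the second 11, 7 and 12. They were 11, 9 and 11 without the first kiTbr2GFP array, 13, 7 and 17 without the second and 11, 6 and 12 without the third.

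Adhesion and guidance receptors were higher in small groups of relatives. Of 35 cadherins and protocadherins 10 were higher and 0 lower, with a median of 0.17. After Cdh9 these were led by Pcdh9 (2.05 ± 0.39, adjusted p = 0.011) and Cdh8 (1.76 ± 0.22, adjusted p = 0.000734). Pcdh9 did not pass without the first PomcGFP array (adjusted p = 0.128), the second (adjusted p = 0.052) or the first kiTbr2GFP array (adjusted p = 0.0518). Those 3 settings gave 5, 6 and 6 higher cadherin genes. Of 21 Eph receptors and ephrins the receptors Epha6, Epha5 and Epha7 were higher. Epha6 stood at 8.67 and 8.49 against 6.43, 6.40 and 5.80 (2.37 ± 0.29, adjusted p = 0.000734). Epha5 stood at 8.46 and 8.55 against 6.61, 6.22 and 6.68 (2.0 ± 0.30, adjusted p = 0.00225), and Epha7 at 10.51 and 10.44 against 8.82, 8.65 and 8.17 (1.93 ± 0.25, adjusted p = 0.000938). The groups did not overlap for any of the 3, and the other 18 genes gave -0.37 (Efna5) to 0.38 (Efnb3). Of 45 semaphorin, plexin, netrin and Slit genes 3 were higher, Sema5a (0.75), Slit3 (0.72) and Robo1 (0.63), and the netrin receptor Unc5d was lower (-0.88). The shares among all genes were 2.9% higher and 1.98% lower. Slit3 passed without each compared array, while Sema5a did not without the second (adjusted p = 0.0545) or the third kiTbr2GFP array (adjusted p = 0.0682) or the first PomcGFP array (adjusted p = 0.203). Robo1 (adjusted p = 0.11 to 0.325) and Unc5d (adjusted p = 0.0568 to 0.419) did not pass without any 1 of the 5.

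A few genes known from Cajal-Retzius cells, early-born neurons of the outer molecular layer, were lower in PomcGFP. Reln, the secreted protein that guides migrating neurons, stood at 8.31 and 7.55 on the PomcGFP arrays and at 10.15, 10.28 and 9.99 on the kiTbr2GFP arrays (-2.21 ± 0.30, adjusted p = 0.00128). Ndnf, a secreted neurotrophic factor, stood at 7.96 and 7.14 against 10.22, 10.22 and 10.09 (-2.63 ± 0.37, adjusted p = 0.00164). The second PomcGFP array was the lowest for both genes. Cxcr4, the receptor of the chemokine Cxcl12, stood at 10.09 and 9.91 against 10.96, 10.93 and 10.84 (-0.91 ± 0.14, adjusted p = 0.00256). Ackr3, the scavenger receptor of the same chemokine, was higher (0.51 ± 0.13, adjusted p = 0.0394), but not without any 1 of the compared arrays (adjusted p = 0.0698 to 0.26). Of 15 Cajal-Retzius genes 4 were lower, Reln, Ndnf, Cxcr4 and Cacna2d2, and 0 higher, beside 1.98% lower among all genes. The list averaged 7.62 and 7.41 against 8.18, 8.16 and 8.11. Trp73, a defining marker of that cell type, gave -0.18, Lhx5 -0.21, Lhx1 -0.29, Calb2 -0.38, Ebf3 -0.60 and Zic1 -0.63, and none of them passed. Eomes is itself expressed by Cajal-Retzius cells, and the part of such cells in these differences was not tested.

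Chromatin and RNA-binding genes changed in a few members. Of 47 chromatin genes 5 were lower and 0 higher, with a median of -0.11. After Hmgb2 these were Uhrf1 (-1.20), which maintains DNA methylation at replication, Hmgb3 (-1.14), Ezh2, the methyltransferase of Polycomb complex PRC2 (-0.98 ± 0.15, adjusted p = 0.00237), and its partner Eed (-0.64 ± 0.12, adjusted p = 0.00761), which did not pass without the first PomcGFP array (adjusted p = 0.105). Ezh2 stood at 10.28 and 10.02 against 11.12, 11.15 and 11.12. The 3 kiTbr2GFP arrays were nearly the same for it, and both PomcGFP arrays lay below them. BAF subunits that switch between progenitors and neurons gave -0.43 (Actl6a) and 0.42 (Actl6b), and neither passed. Other BAF subunits gave 0.03 (Phf10), -0.02 (Ss18), -0.03 (Ss18l1), 0.27 (Dpf1) and 0.35 (Dpf3), and none of them passed. Of 36 neuronal RNA-binding and splicing genes Rbfox1 (1.31 ± 0.20, adjusted p = 0.00301) and Mbnl2 (0.75) were higher and Elavl4 and Elavl2 lower. Elavl4 stood at 7.51 and 7.07 against 10.10, 9.91 and 9.80 (-2.65 ± 0.21, adjusted p = 5.22e-05), the reverse order of Rbfox1 at 9.99 and 9.80 against 8.71, 8.60 and 8.45. Mbnl2 did not pass without the first PomcGFP array (adjusted p = 0.148), the second (adjusted p = 0.0627), or the second (adjusted p = 0.0575) or the third (adjusted p = 0.0526) kiTbr2GFP array. Of 59 ribosomal protein genes and 27 splicing factors 0 passed in limma, with medians of -0.13 and -0.17. An unadjusted p under 0.05, with lower values in PomcGFP, was found for 7 and 5, beside 14.3% of all genes in either direction. Among all genes 1.98% passed as lower. Of 29 immediate early genes Ier5 was lower (-0.71), though not without the second (adjusted p = 0.0774) or the third kiTbr2GFP array (adjusted p = 0.0661) or the first (adjusted p = 0.171) or second PomcGFP array (adjusted p = 0.0951).

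Marker genes of other cell types also stood higher in PomcGFP, beside the neuronal genes. All 15 measured oligodendrocyte genes gave positive differences, beside 52.7% of all genes. The list median was 1.39, and 2 members passed, Mbp and Mobp, beside 2.9% higher among all genes. Mbp, of myelin, stood at 10.08 and 10.19 against 8.23, 8.23 and 8.32 (1.87 ± 0.29, adjusted p = 0.00274). The list averaged 8.91 and 8.99 on the PomcGFP arrays and 7.28, 8.0 and 7.30 on the kiTbr2GFP arrays, the second of which stood apart, and without it 3 of 15 passed. Mobp (2.20 ± 0.48, adjusted p = 0.0218) did not pass without any 1 of the other 4 arrays (adjusted p = 0.0785 to 0.15). With the 5 compared arrays alone, 11 of the 15 passed. Of 18 astrocyte genes 3 were higher, Slc4a4 (1.52), S100b (1.35) and Sparcl1 (1.03), with averages of 8.65 and 8.77 against 8.07, 8.30 and 8.23, while Aqp4 (0.83) and Gfap (0.23) did not pass. S100b did not pass without the second PomcGFP array (adjusted p = 0.0644). Of 12 oligodendrocyte precursor genes Pdgfra (1.11) and Olig1 (0.89) were higher, and 0 were without the first kiTbr2GFP array. The others gave -0.10 (Tmem100) to 0.56 (Bmp4), with Cspg4 at -0.05, Sox10 at 0.21 and Olig2 at 0.26, and none of them passed.

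Some microglia and vessel genes were higher as well, beside 2.9% higher and 1.98% lower among all genes. Of 17 microglia and macrophage genes 5 were higher, led by the lysosomal protease Ctss, at 9.32 and 8.91 against 7.07, 7.0 and 7.34 (1.98 ± 0.39, adjusted p = 0.0135), with list averages of 7.40 and 7.42 against 6.66, 6.83 and 6.96. The others that passed were C1qc (1.19), Aif1 (1.03), Ly86 (1.00) and Cx3cr1 (0.54), while the markers Tmem119 (0.01), Trem2 (-0.05) and Siglech (0.23) did not pass. Ctss did not pass without the first PomcGFP array (adjusted p = 0.147), the second (adjusted p = 0.0626) or the first kiTbr2GFP array (adjusted p = 0.0576). The list had 0 and 1 higher members without the first and second PomcGFP array, and 1, 2 and 4 without the first, second and the third kiTbr2GFP array. Of 17 endothelial genes 3 were higher, Itm2a (1.49), Flt1 (1.04) and Cdh5 (0.71), with averages of 7.02 and 7.40 against 6.55, 6.72 and 6.67. Without the first PomcGFP array 1 endothelial gene was higher, and without the second or any 1 kiTbr2GFP array 0 were. Among 14 GABAergic interneuron genes Gad1, the GABA-synthesis enzyme also made by granule cells, was higher (1.13 ± 0.15, adjusted p = 0.00103). Cck (0.84) was also higher and Sox6 (-0.51) lower, and neither passed without the first (adjusted p = 0.262 and 0.285) or second PomcGFP array (adjusted p = 0.103 and 0.202). The other interneuron genes gave -0.28 (Dlx1) to 0.60 (Erbb4), with Slc32a1 at 0.15, Pvalb at 0.18 and Sst at 0.23, and none of them passed. No tested member of the oligodendrocyte, astrocyte, microglia and endothelial lists lay below the 25th percentile on all 5 arrays. The filter had already removed low genes, such as the microglia genes P2ry12 and Itgam, which lay below that percentile on each of the 5. The part of any of these cell types in the neuronal differences was not tested.

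Genes that passed as higher spanned more of the genome. Their median span from start to end of the RefSeq gene (GRCm38.p6) was 88.2 kb for 469 protein-coding genes, against 25.6 kb for 319 lower genes and 21.3 kb for all 15549. The share that was higher lay between 1.09% and 1.92% in the 4 ranges under 50 kb, without a steady order, and was 3.17% from 50 to 100 kb, 7.12% from 100 to 200 kb, 13.1% from 200 to 500 kb and 25.6% (50 of 195) over 500 kb. The share that was lower stayed between 1.44% and 2.46% in every range. Genes in none of the lists gave 0.954% higher under 10 kb and 19.1% (25 of 131) over 500 kb. The share over 500 kb was 11.8% without the first PomcGFP array, 16.4% without the second and 17.9%, 17.4% and 15.9% without the first, second and the third kiTbr2GFP array, beside 0.294% to 0.504% under 5 kb in the same 5 settings. Long genes include many of the adhesion, receptor and channel genes above, such as Dlg2, Epha6 and Ryr2.

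**Figure D5:**
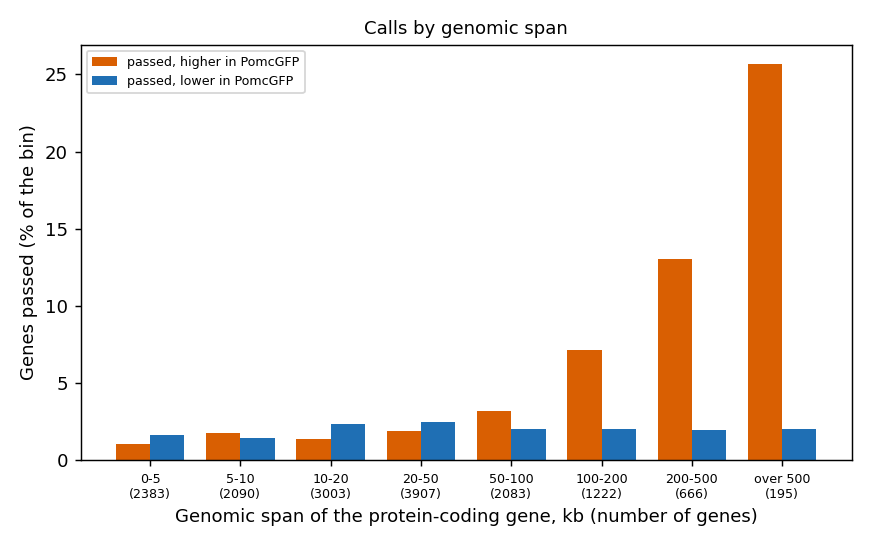
Share of protein-coding genes that passed as higher (orange) or lower (blue) in PomcGFP, in percent of each range of genomic span in kb, with the number of genes in brackets. The share of higher genes lies between 1.09% and 1.92% in the ranges under 50 kb and reaches 25.6% over 500 kb, and the share of lower genes stays between 1.44% and 2.46%.

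The sex of the animals is not in the labels, and sex-linked genes differed without overlap between the lines. Xist, the RNA of the inactive X chromosome, stood at 11.08 and 10.88 on the PomcGFP arrays and at 10.45, 10.29 and 10.32 on the kiTbr2GFP arrays. The Y-linked gene Eif2s3y stood at 8.79 and 8.52 against 9.81, 9.49 and 9.41, and the differences were -0.88 for Uty and -0.57 for Kdm5d. Xist and the Y-linked genes all lay above the 25th percentile on each of the 5 arrays. None passed in the fit of 11 arrays (adjusted p = 0.959 for Xist and 0.818 to 0.933 for the Y-linked genes), and all 4 did with the 5 compared arrays alone (adjusted p = 0.019 for Xist and 0.0146 to 0.0187 for the others). The part of sex in the differences above was not tested.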

How the data were processed

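Sorted cells gave 11 arrays of the Affymetrix Mouse Gene 1.0 ST type, of which 2 PomcGFP and 3 kiTbr2GFP arrays were compared. The deposited values are 1 log2 value per probe set and array, which the authors made with RMA (background correction, normalization and probe summary) and oligo, as named without a version in the submitters' processing notes. RMA's usual output and the range of the values give the log2 scale, and the genome build is not given in the sources used here. Array medians lay between 7.0 and 7.15.

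For genes with a probe set of 1 symbol, the probe set with the highest mean over the 11 arrays was used and kept if above the 25th percentile of the array on at least 2 arrays. In limma 3.58.1 (R 4.3.3) a cell-means model took in the 11 arrays (7 residual and 4.22 prior degrees of freedom), so that PomcGFP, with 2 arrays, shared its spread with the other lines. Its moderated test was two-sided, and genes under 0.05 after Benjamini-Hochberg adjustment over 16526 genes are said to have passed. Intervals are 95%. Of 4917 probe sets with several or no symbols 55 passed the same fit, and they are not described. The fit was tested on simulated data.

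Members of 43 gene lists and 9 name-based classes were counted without a test. The members, lists and the comparison itself were chosen with earlier results of these data known. Named genes are from the 15 largest differences per direction among genes that passed, the stage panel and up to 4 members per direction of each list or class. The metabotropic receptor and Homer list and the sex-linked genes are named whole. Members that did not pass outside these, and Cdk4, Chd7, Mfap4, Eed, Gria1, Grin2b, Gabbr2, Slc12a5, Slc17a7, Dgkh, Ahcyl2, Tdo2 and Cx3cr1, were named after their values were seen. Promoter sequences, gene spans and gene types are from RefSeq, GRCm38.p6, and 13012 of the 16526 genes had a promoter. Alternatives were other filters, the mean of probe sets, cyclic loess, median centring, array weights, a trended and robust prior, a block for the replicate number, fewer groups in the fit, and each array left out. Tables and figures used Python 3.11.15, pandas 2.3.3, numpy 2.4.6 and matplotlib 3.10.9.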

Additional observations from a re-analysis of the deposited data

How the results depend on the processing

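All 807 genes that passed kept the sign of their difference under each of the 22 alternatives in which they were tested, and 256 passed under all of them. Most of these alternatives could not change a sign, because the arrays did not overlap or because the setting leaves the difference as it was. Filters, the mean of probe sets, cyclic loess, median centring and an intensity trend with a robust prior gave 746 to 827 genes. Counts over 1.5 times higher came from array weights (2065 genes, 1125 higher and 940 lower), the 5 compared arrays alone (1246, with 718 higher and 528 lower) and the fit without NesGFP arrays (1256, with 707 higher and 549 lower). Leaving out single arrays gave 365 (without the first PomcGFP array) to 1044 (without the third NesGFP array) genes, 186 to 613 higher and 141 to 431 lower. With the replicate block 673 genes passed, 367 higher and 306 lower, 616 of them shared with the 807. Nothing in the labels ties same-numbered arrays together. Deviations from the group means correlated at 0.09 and 0.01 for the 2 same-numbered pairs of the compared lines, and at -0.11 to 0.26 over all 15 such pairs, of which 4 were over 0.1. The 3 pairs numbered 3, none with a PomcGFP array, gave 0.13 to 0.26. Differently numbered pairs gave -0.25 to 0.12. The numbers were not taken as pairs, since not all same-numbered pairs were over 0.1. The share of calls that were higher was 59.4%, 61.9% with cyclic loess and 56.4% with median centring. With 2 PomcGFP arrays the spread of that line is set by 1 difference, and a gene below the 25th percentile in one line has an imprecise difference there, which holds for 17 of the higher and 20 of the lower genes. The cause of the changes between settings was not tested.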

Other observations

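Receptors for neuromodulators and hormones were counted as a further group, chosen after the data were seen. Of 61 measured genes named as receptors of serotonin, dopamine, acetylcholine, noradrenaline, neuropeptide Y, opioids, galanin, somatostatin, histamine, cannabinoids, glycine, neurotrophins and corticosteroids, 8 were higher in PomcGFP and 0 lower (13.1%, beside 2.9% of all genes), with a median difference of 0.04. Ntrk3, the receptor of neurotrophin-3, stood at 8.95 and 8.91 on the PomcGFP arrays and at 7.86, 7.80 and 7.79 on the kiTbr2GFP arrays (1.11 ± 0.16, adjusted p = 0.00178 in limma). It was the member that passed without each compared array (adjusted p = 0.00845 to 0.0289). Npy1r, a neuropeptide Y receptor, stood at 7.89 and 7.63 against 5.63, 6.65 and 5.50 (1.83 ± 0.42, adjusted p = 0.0305), with the second kiTbr2GFP array the highest of its line. Drd5, a dopamine receptor (0.87), Htr1a (0.75) and Htr4 (0.63), serotonin receptors, Chrm1, a muscarinic receptor (0.74), Glra2, a glycine receptor subunit (1.45), and Nr3c2, the mineralocorticoid receptor (1.34), were also higher. The count was 3 without the first PomcGFP array, 2 without the second, and 4, 5 and 6 without the first, second and the third kiTbr2GFP array. Of the 53 others none was lower by more than 0.20.

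Of 20 pyramidal and mossy cell genes 2 were higher, and Cpne4, a calcium-dependent membrane-binding protein, stood at 7.71 and 7.82 against 6.31, 6.45 and 6.42 (1.37 ± 0.13, adjusted p = 0.000132 in limma). Of 15 interferon response genes B2m (0.98) was higher, and of 20 mural and fibroblast genes Vtn (1.19), neither of which passed without the second PomcGFP array (adjusted p = 0.192 and 0.37). Of 28 cholesterol and fatty acid genes Thrsp (-0.65) was lower, and it did not pass without either PomcGFP array (adjusted p = 0.0545 and 0.239) or without the second (adjusted p = 0.0806) or the third kiTbr2GFP array (adjusted p = 0.0742). Of 10 ependymal and choroid plexus genes, which gave -0.50 (Enkur) to 0.20 (Ttr), 0 passed in limma. An unadjusted p under 0.05 was found for 0 of them, beside 14.3% of all genes. The 1 measured erythroid gene (-0.09) did not pass either. Of 167 microRNA genes 1 was higher and 2 lower, of 50 small nucleolar RNA genes 0 and 2, and of 259 olfactory receptor genes 0 and 1. For all these counts, 2.9% of all genes were higher and 1.98% lower.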
